A study of Mus musculus with 2 samples.

Results

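Genes of early B cell development, namely the genes of the surrogate light chain with the related Vpreb3, the recombination genes and a few factors that mark the B lineage, were compared between spleen cells of NOD-SCID mice that were sorted as Z(+) or as Z(-). They were chosen by name, with earlier results of these data known. The list held 10 genes (Vpreb1, Vpreb2, Vpreb3, Igll1, Rag1, Rag2, Dntt, Pax5, Ebf1 and Ms4a1). Of these, 9 had a probe under that symbol in the platform's annotation, out of 19084 annotated genes. No probe was listed for Vpreb2. Z(+) cells bind Zfra, a short peptide whose membrane receptor is Hyal-2, and Z(-) cells do not. Both fractions came from NOD-SCID mice (NOD background with the scid mutation of Prkdc) aged 6 to 8 weeks and were isolated by sorting right after the spleens were taken, without culture or treatment. Cells of probably 8 spleens were used (the submitters state the number but not its unit), and donors cannot be separated, since each fraction gave 1 RNA sample. Each sample was hybridised to 2 technical arrays in Cy5, and the deposited value of a probe is the mean of both. With 1 sample per fraction, no difference has a test, and the technical arrays measure the hybridization only.

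B lymphocytes assemble their antigen receptor genes by V(D)J recombination. The RAG1 and RAG2 proteins cut the DNA beside the gene segments, terminal transferase (Dntt) adds nucleotides at the open ends, and the end joining machinery, which includes the DNA-dependent protein kinase encoded by Prkdc, closes them. A precursor that has made a heavy chain displays it together with the surrogate light chain, built of VpreB (Vpreb1, Vpreb2) and lambda5 (Igll1), as the pre-B cell receptor. EBF1 and PAX5 are the transcription factors that commit a cell to the B lineage, and CD20 (Ms4a1) appears on later stages. In scid mice the cut ends are joined poorly, so that B and T cell precursors stall while their recombination genes can still be transcribed. In adult mice this development takes place mainly in the bone marrow.

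Vpreb3, Igll1 and Vpreb1 had the largest log2 differences among the 9 measured genes, so their start regions are shown here. Part of the region of Vpreb2, the copy of Vpreb1 without a listed probe, is shown with them. The sequences are RefSeq windows from 250 bases before to 50 bases after the annotated transcript start, and capitals mark the match to a searched motif. For Vpreb2 only the first 156 bases of the window are given, and these end before its annotated start.
Vpreb1, GRCm38.p6 chr16:16869206-16869505, minus strand: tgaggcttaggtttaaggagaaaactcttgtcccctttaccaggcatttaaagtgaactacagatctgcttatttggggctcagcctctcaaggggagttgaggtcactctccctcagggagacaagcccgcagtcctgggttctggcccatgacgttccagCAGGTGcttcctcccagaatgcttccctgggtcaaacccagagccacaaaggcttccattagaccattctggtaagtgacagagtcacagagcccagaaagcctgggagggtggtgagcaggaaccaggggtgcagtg
Vpreb2 (the part that aligns with the Vpreb1 window), GRCm38.p6 chr16:17980315-17980470, plus strand: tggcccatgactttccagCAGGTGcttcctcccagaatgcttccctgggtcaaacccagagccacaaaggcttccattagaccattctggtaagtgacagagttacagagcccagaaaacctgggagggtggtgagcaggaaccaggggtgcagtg
Igll1, GRCm38.p6 chr16:16863936-16864235, minus strand: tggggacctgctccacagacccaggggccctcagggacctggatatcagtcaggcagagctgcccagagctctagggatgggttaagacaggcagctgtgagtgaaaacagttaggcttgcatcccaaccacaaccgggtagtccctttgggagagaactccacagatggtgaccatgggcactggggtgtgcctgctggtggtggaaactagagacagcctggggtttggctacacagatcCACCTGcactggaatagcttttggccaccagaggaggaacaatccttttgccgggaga
Vpreb3, GRCm38.p6 chr10:75948050-75948349, plus strand: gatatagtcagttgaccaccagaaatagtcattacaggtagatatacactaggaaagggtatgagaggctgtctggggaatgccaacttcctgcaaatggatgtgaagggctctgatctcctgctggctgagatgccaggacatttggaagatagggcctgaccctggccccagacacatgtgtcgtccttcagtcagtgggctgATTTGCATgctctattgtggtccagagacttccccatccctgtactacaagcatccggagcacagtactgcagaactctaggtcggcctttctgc
Over the 156 bases in which the windows of Vpreb1 and Vpreb2 overlap, 153 were identical and 3 differed. Vpreb1 and Vpreb2 are near-identical copies, and the probe sequence was not used here, so signal of the Vpreb1 probe may come from either gene. Igll1 and Vpreb1 are direct neighbours among the protein-coding genes of chromosome 16.

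The letters CAGGTG, an E-box bound by the E2A proteins (Tcf3), were searched on both strands. They began 88 bases before the start of Vpreb1 and 232 bases before that of Vpreb2, which is the same place in the shared stretch, and 8 bases before that of Igll1 as CACCTG, the other strand's reading. Rag1 held a match as well, 135 bases before its start. The octamer ATGCAAAT, a site of the POU factors, was found only in Vpreb3, 45 bases before its start and read on the other strand as ATTTGCAT. The palindromic recognition site of EBF was in none of the windows. No match overlapped another. Of the 10 windows that matched 9 of the listed genes (Ebf1 has a pair of starts), 4 held the E-box, against 20.2% of all 32851 windows. The shared site of Vpreb1 and Vpreb2 is counted in both of their windows. The octamer was in 1 of the 10 windows, against 1.74% of all, and the EBF site in 0, against 0.904% of all. At so low a share, 0 of 10 does not set these windows apart. These letter matches describe the windows and are no measure of binding.

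In Z(+) cells, Vpreb3 and both measured components of the surrogate light chain, Igll1 and Vpreb1, had a lower intensity than in Z(-) cells. Rag1 was lower by a smaller amount, and the other 5 genes had log2 differences between -0.26 and 0.04. Over the 9 measured genes, 2 were lower in Z(+) by 2-fold or more (Vpreb3 and Igll1) and 0 were at least 2-fold higher. Over all genes, 6.27% were at least 2-fold lower and 2.44% at least 2-fold higher. These shares were 6.4% and 2.77% among genes below the median brightness, and 6.14% and 2.12% among the brighter genes. Of the 9 genes, 7 were lower in Z(+) by any size, against 45.7% of all genes, and their median log2 difference, Z(+) minus Z(-), was -0.26, against 0.03 over all genes. Only Vpreb1 was a brighter gene in this sense, with a mean log2 intensity over the median of 6.92 (an intensity of 121), and the other 8 lay below it. Brightness depends on the probe too, and a dim signal is no proof that a transcript was missing. In RNA of a whole fraction, fewer cells of a type and less RNA per cell cannot be told apart.

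**Figure D1:**
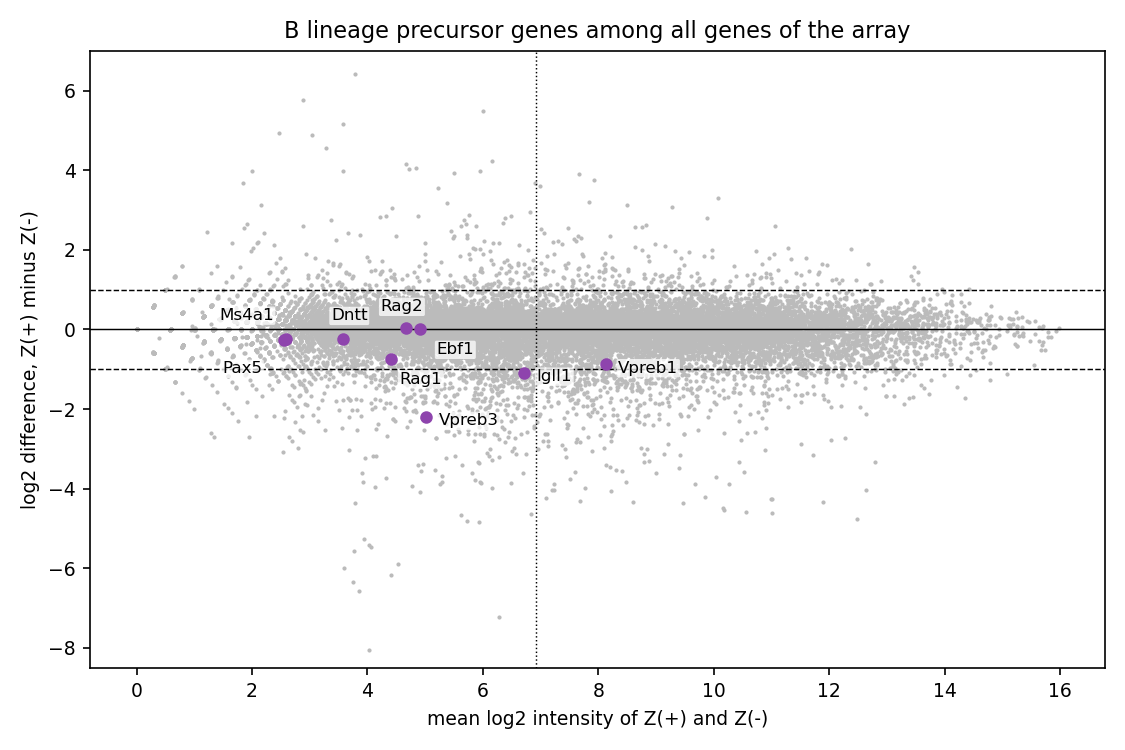
Log2 difference between Z(+) and Z(-) (vertical axis) against the mean log2 intensity of both fractions (horizontal axis) for all 19084 genes (grey) and the 9 measured genes (purple). Dashed lines mark 2-fold, the dotted line marks the median brightness of 6.92, and Vpreb3 and Igll1 lie below the lower dashed line.

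Vpreb3 encodes a VpreB-like protein that binds newly made heavy chains inside the cell. The deposited value was 15.1 in Z(+) cells, against 69.5 in Z(-) cells. The technical arrays read 12.6 and 17.6 in Z(+), against 66.7 and 72.3 in Z(-), so the arrays of the fractions did not overlap. The gene was 4.61-fold lower in Z(+), a log2 difference of -2.20, and it was the only one of the 9 genes for which every array of Z(+) lay at least 2-fold under every array of Z(-). Among all named probes with recovered arrays, 4.66% met that condition. The value of Vpreb3 in Z(+) is near the dim end of the array, and with 50 added to every intensity the log2 difference was -0.88, short of 2-fold.

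Igll1 encodes lambda5, the part of the surrogate light chain that links it to the heavy chain. The deposited value was 71.9 in Z(+) cells, against 153 in Z(-) cells, a 2.13-fold lower value and a log2 difference of -1.09. The arrays of Z(+) read 45.5 and 98.2 and differed 2.16-fold from each other, whereas those of Z(-) read 152 and 154. Both Z(+) arrays were under both Z(-) arrays, but over the pairings of a Z(+) with a Z(-) array the log2 difference ran between -1.76 and -0.63, which includes values short of 2-fold. With 16 added to every intensity it was short of 2-fold as well, at -0.94.

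Vpreb1 encodes the VpreB chain, which takes the place of a light chain variable domain. The deposited value was 206 in Z(+) cells, against 379 in Z(-) cells, with arrays at 196 and 217 in Z(+), against 353 and 405 in Z(-). The gene was 1.84-fold lower in Z(+), a log2 difference of -0.88 that did not reach 2-fold, and the arrays of the fractions did not overlap. In the range of intensities between 60 and 400, the arrays of a sample differed by a median of 1.09-fold in Z(+), with 95% of probes within 1.46-fold, and by 1.04-fold in Z(-), with 95% within 1.16-fold. The gap between Igll1 arrays in Z(+) was therefore wider than that of 95% of probes of this brightness.

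**Figure D2:**
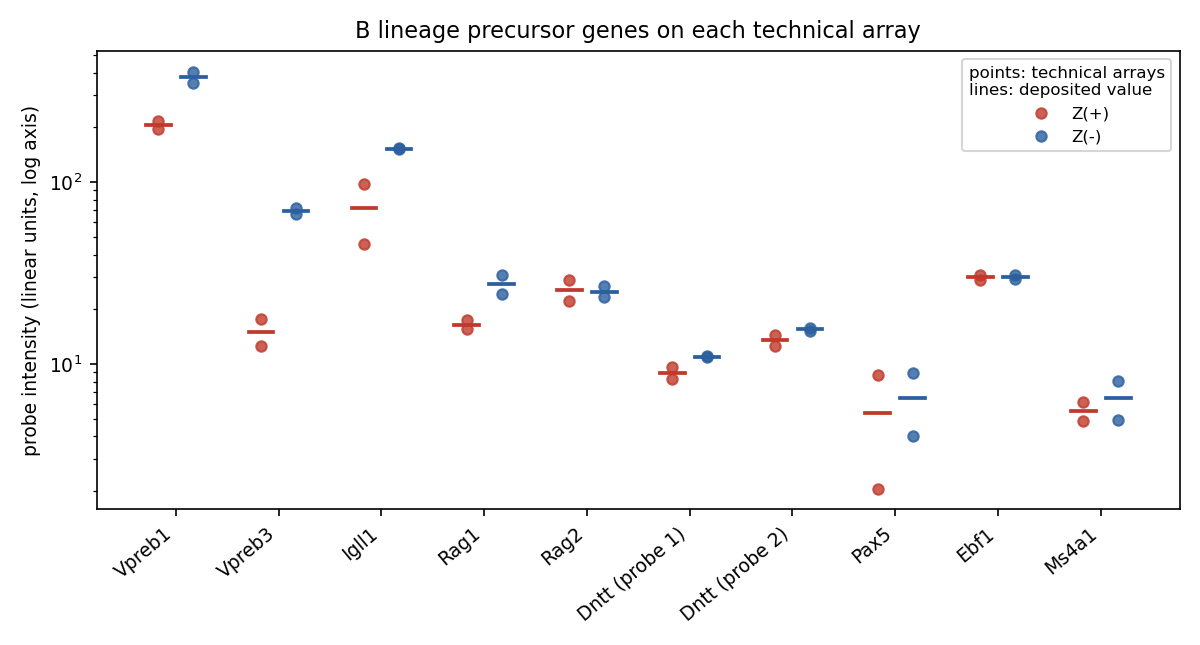
Intensity of each probe (vertical log axis, linear units) on the technical arrays of Z(+) (red, left) and Z(-) (blue, right), with points for arrays and lines for the deposited value. Heights of different probes are not comparable. The red points of Vpreb1, Vpreb3, Igll1, Rag1 and both Dntt probes lie below the blue ones, and the others overlap.

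Rag1 and Rag2, which encode the recombinase and are neighbours on chromosome 2, had log2 differences of unequal size. Rag1, which encodes the cutting subunit, read 16.5 in Z(+) cells, against 27.5 in Z(-) cells. Its arrays read 15.5 and 17.4 in Z(+), against 24.2 and 30.7 in Z(-), without overlap. This was 1.67-fold lower in Z(+), a log2 difference of -0.74, within 2-fold. Rag2, which encodes the partner subunit, had 25.6 in Z(+) and 25.0 in Z(-), a log2 difference of 0.04. Its arrays overlapped, at 22.3 and 29.0 in Z(+), against 23.2 and 26.7 in Z(-). The difference between the log2 differences of Rag1 and Rag2 was not tested.

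Dntt encodes terminal transferase and was measured by a pair of probes that went the same way. The first read 8.98 in Z(+) and 11.0 in Z(-), and the second 13.5 in Z(+) and 15.5 in Z(-). Their log2 differences were -0.29 and -0.20, and the mean over both was -0.24. The arrays of the fractions did not overlap for either probe, by narrow margins: the first read 8.27 and 9.68 in Z(+), against 10.9 and 11.1 in Z(-), and the second 12.6 and 14.5 in Z(+) and 15.2 and 15.8 in Z(-). Such a lack of overlap was common on this platform, since both Z(+) arrays lay under both Z(-) arrays for 30.3% of all named probes with recovered arrays and over them for 38.4%. Among the 10 probes of the measured genes, 6 had both Z(+) arrays under both Z(-) arrays, 0 had both over them and 4 overlapped.

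The commitment factors and CD20 showed no difference beyond their arrays. Ebf1 read 30.03 in Z(+) cells, against 29.99 in Z(-) cells, a log2 difference of 0.00, with arrays at 29.0 and 31.0 in Z(+), against 29.3 and 30.7 in Z(-). Pax5 was dim, at 5.39 in Z(+) and 6.48 in Z(-). Its arrays spread widely, at 2.07 and 8.71 in Z(+), against 4.04 and 8.91 in Z(-), so that its log2 difference of -0.26 ran between -2.11 and 1.11 over the array pairings. Ms4a1 had 5.52 in Z(+) and 6.52 in Z(-), a log2 difference of -0.24, with overlapping arrays at 4.84 and 6.20 in Z(+), against 4.95 and 8.08 in Z(-). Between intensities of 4 and 20, where Dntt, Pax5 and Ms4a1 lie, the arrays of a sample differed by a median of 1.20-fold in Z(+) and 1.12-fold in Z(-), with 95% of probes within 2.67-fold and 2.10-fold. The gaps of both Dntt probes, though without overlap, were smaller than these limits. The Z(+) value of Rag1 lay in this range too, and its 1.67-fold difference was smaller than the Z(+) limit. Its Z(-) value lay between 20 and 60, where 95% of Z(-) probes were within 1.55-fold. For Pax5 and Ms4a1 a difference was not detectable on these arrays, which does not show that the fractions were alike.

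**Figure D3:**
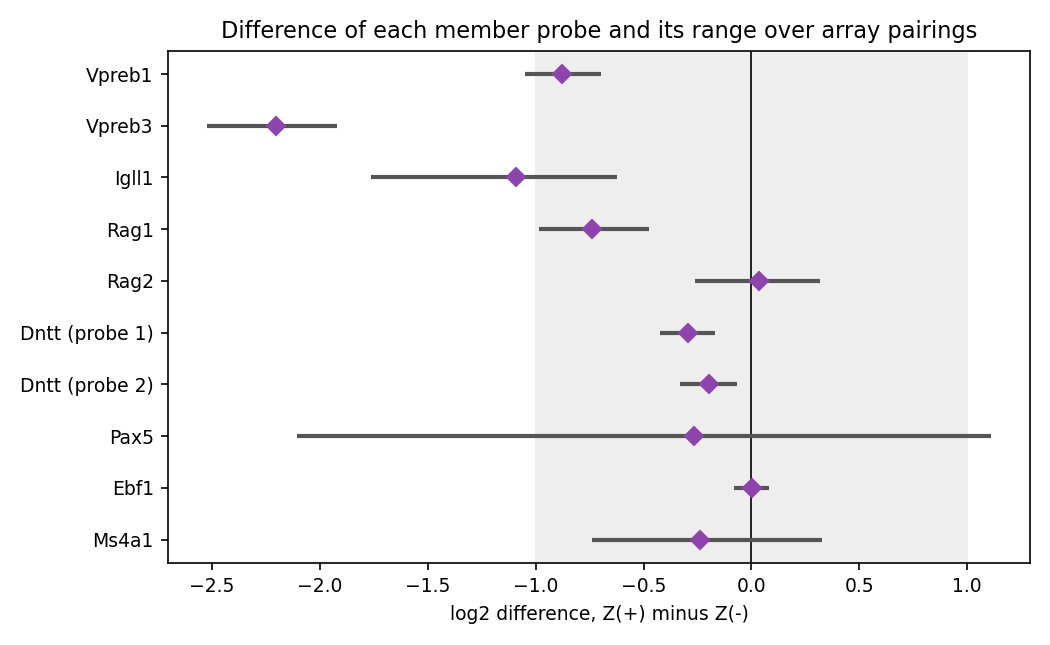
Log2 difference, Z(+) minus Z(-), of each probe (diamond) with its range over the 4 pairings of technical arrays (bar), and differences short of 2-fold shaded. The bars of Vpreb1, Vpreb3, Igll1, Rag1 and Dntt lie wholly below 0, that of Vpreb3 wholly beyond 2-fold, and that of Pax5 spans from -2.11 to 1.11.

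Genes of B cell receptor signaling, which the pre-B cell receptor uses as well, were compared next. Of 11 listed genes of B cell receptor signaling, 8 had a probe, 0 were at least 2-fold lower or higher in Z(+), and their median log2 difference was 0.10. Over all genes 91.3% were within 2-fold, with 6.27% lower and 2.44% higher by that much, so 0 of 8 does not set these genes apart, and the same shares stand behind the counts of the lists that follow. Ighm, the heavy chain, had no listed probe. Cd79a, a signaling chain of the pre-B and B cell receptor, read 226 in Z(+) cells, against 202 in Z(-) cells. Cd79b, its partner, had 1306 in Z(+) and 1230 in Z(-). Blnk, the adaptor downstream, had 261 in Z(+) and 287 in Z(-). Btk and Syk, kinases that are also active in myeloid cells, had 4590 and 4865 in Z(+) and 5149 and 3823 in Z(-). Their log2 differences were 0.17 for Cd79a, 0.09 for Cd79b, -0.14 for Blnk, -0.17 for Btk and 0.35 for Syk.

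Of 12 measured genes that are known targets of PAX5 and EBF1 in B cells, 10 were within 2-fold, against 91.3% of all genes, and the median log2 difference was 0.12. Cd72, an inhibitory coreceptor, had 19763 in Z(+) and 14257 in Z(-). Pou2af1, a coactivator of the octamer factors, had 144 in Z(+) and 116 in Z(-), and Ciita, the regulator of MHC class II, had 364 in Z(+) and 323 in Z(-). The 2 targets at least 2-fold lower were Bst1 and Fcrla. Bst1, a surface enzyme of precursor B cells and myeloid cells, had 974 in Z(+) and 2052 in Z(-). Of 14 measured surface genes of mature B cells, which share 3 measured genes with the targets, 1 (Fcrla) was at least 2-fold lower and 1 higher, with a median of -0.17. The higher one was Bank1, a B cell adaptor, at 230 in Z(+) and 115 in Z(-), just past 2-fold. Cd180, a receptor of B cells and macrophages, had 843 in Z(+) and 439.9 in Z(-), and H2-Ob, a chain that tunes MHC class II loading, had 122 in Z(+) and 196 in Z(-).

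Of 12 measured receptors and surface markers of lymphoid precursors, 6 were lower in Z(+) by 2-fold or more, against 6.27% of all genes, and 0 were higher by that much. The median log2 difference was -1.02, against 0.03 over all genes. Il7r, the receptor chain through which interleukin 7 maintains early B and T cell precursors, had 77.1 in Z(+) and 407 in Z(-), a log2 difference of -2.40. Its arrays read 74.5 and 79.6 in Z(+), against 397 and 418 in Z(-). Ly6d, a marker of B-biased lymphoid progenitors, had 151 in Z(+) and 674 in Z(-). Kit, the stem cell factor receptor, which mast cells carry as well, had 268 in Z(+) and 842 in Z(-). Cd24a, a surface protein of precursor B cells and many other blood cells, had 6883 in Z(+) and 15378 in Z(-). Of the lower genes, Bst1 is also listed among the targets above, and Ly6d among the plasmacytoid dendritic cell genes below. In contrast, Crlf2, Il2ra, Spn, Cd93 and Cxcr4 had log2 differences between -0.09 and 0.31.

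Among 20 measured transcription factors that act beside EBF1 and PAX5 in lymphoid cells, 3 were lower in Z(+) by 2-fold or more and 1 was higher by that much, with a median log2 difference of -0.31. Myb, a factor of blood precursors, had 85.3 in Z(+) and 359.5 in Z(-). Spib, a factor of B cells and plasmacytoid dendritic cells, had 68.0 in Z(+) and 261 in Z(-). The other lower one was Erg, a factor of blood stem cells and endothelium, which was dim at 8.59 in Z(+) and 18.5 in Z(-). Pou2f2, an octamer factor that B cells and macrophages express, was the higher one, at 9967 in Z(+) and 4528 in Z(-). Tcf3, which encodes the E2A proteins, had 906 in Z(+) and 539 in Z(-), a log2 difference of 0.75 within 2-fold. Its arrays read 899 and 912 in Z(+), against 530 and 548 in Z(-).

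Another list held genes of end joining, cofactors of RAG cutting and genes that sense, mark or repair DNA breaks. Of its 14 measured genes, 13 were within 2-fold and 1 (Xrcc5) was at least 2-fold lower in Z(+), near the 6.27% of all genes. By any size, 11 of the 14 were lower in Z(+), against 45.7% of all genes, and the median log2 difference was -0.27, close to that of the studied genes. Prkdc, the gene mutated in these mice, had 632 in Z(+) and 734 in Z(-), a log2 difference of -0.22. The position of its probe in the transcript was not used here, so this value does not check the scid allele. Hmgb2, a cofactor of RAG cutting, was 1.66-fold lower over a pair of probes with log2 differences of -1.02 and -0.45. H2ax, a histone marked at DNA breaks, had 520 in Z(+) and 898 in Z(-), Trp53bp1, a break repair factor, had 235 in Z(+) and 364 in Z(-), and Mre11a, of the break-sensing complex, had 481 in Z(+) and 673 in Z(-).

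**Figure D4:**
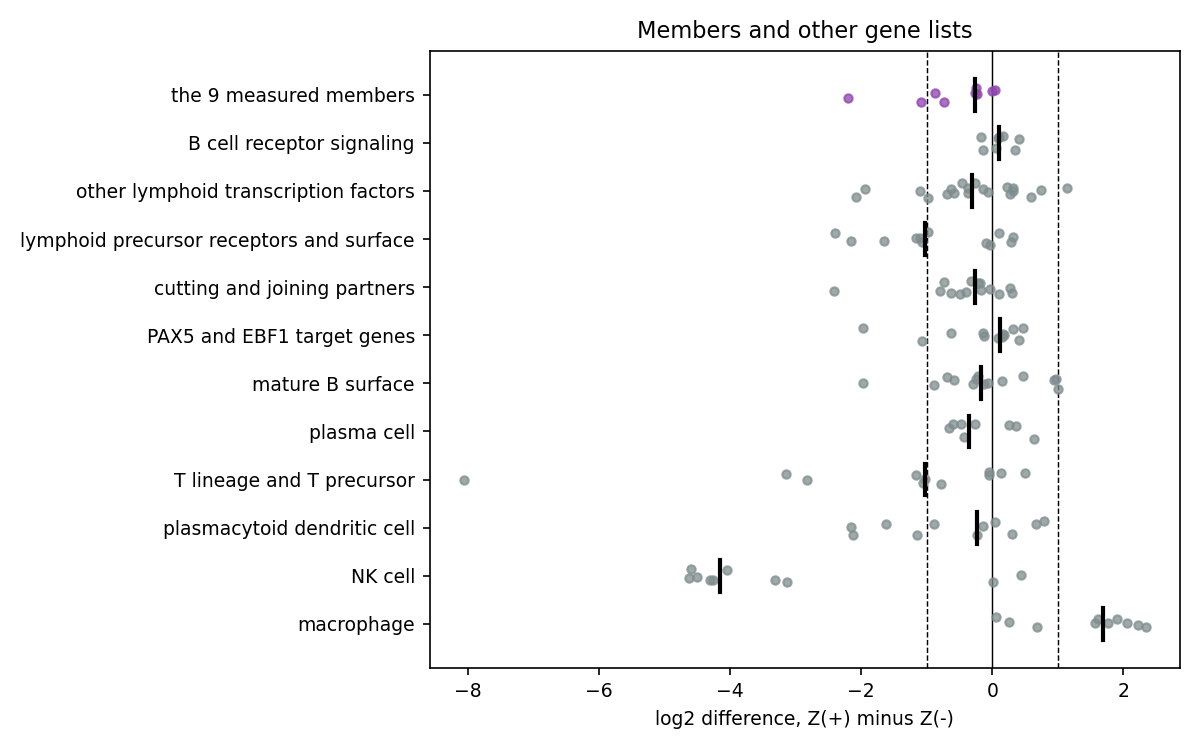
Log2 difference, Z(+) minus Z(-), of each measured gene (points) in each list (rows), with the list median (bar) and dashed lines at 2-fold. The 9 measured genes (purple, median -0.26) lie between NK cell genes (-4.15) and macrophage genes (1.68). The far left point of the T lineage is Gata3, whose Z(+) value of 1.00 lies at the floor set for the log2 scale.

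Marker genes of other cell types differed between the fractions as well, and transcripts of the early lymphoid program are not restricted to B cell precursors, since plasmacytoid dendritic cells and T cell precursors use parts of it. Of 11 measured genes of plasmacytoid dendritic cells, 4 were lower in Z(+) by 2-fold or more (Siglech, Ly6d, Pacsin1 and Cox6a2), and their summed intensity, which the brightest probes of a list largely set, was 43886 in Z(+) and 46546 in Z(-). Siglech, the defining receptor of plasmacytoid dendritic cells, had 93.6 in Z(+) and 408 in Z(-). The probes of Cox6a2 did not match. Its brighter probe had 179 in Z(+) and 189 in Z(-), a log2 difference of -0.08. Its dimmer probe had 28.6 in Z(+) and 134 in Z(-), a log2 difference of -2.23, and the place of Cox6a2 among the lower genes rests on that probe. Bst2, within 2-fold, had 9066 in Z(+) and 16689 in Z(-). Tlr7, which macrophages share, went the other way within 2-fold, with 9561 in Z(+) and 5544 in Z(-). Of 11 measured T lineage genes, 6 were at least 2-fold lower, with a summed intensity of 3796 in Z(+) and 15678 in Z(-). Which cells made these transcripts was not tested. Ptcra, the partner chain of the pre-T cell receptor, had 399 in Z(+) and 413 in Z(-), while Cd3d had 1128 in Z(+) and 9971 in Z(-), Cd3g and Cd3e of the same complex were 7.06-fold and 2.25-fold lower, and Notch1, the receptor that starts T cell development, had 1331 in Z(+) and 2771 in Z(-). Among NK cell genes 8 of 10 were lower by 2-fold or more (Klre1, Klrd1, Tbx21 and Nkg7 between 19.2-fold and 24.1-fold), with sums of 3895 in Z(+) and 52913 in Z(-), and among macrophage genes 7 of 10 were higher (C1qc, C1qb, Timd4 and Mertk between 3.75-fold and 5.06-fold), with sums of 115240 in Z(+) and 74232 in Z(-). Gata3, of the T lineage list, had 1.00 in Z(+), at the floor, and 267 in Z(-). Of the NK cell list, Eomes went the other way, with 898 in Z(+) and 661 in Z(-), a log2 difference of 0.44. Ncr1, an NK cell receptor, was dim in both fractions, at 5.52 in Z(+) and 5.50 in Z(-). The macrophage genes Csf1r and Cd68 were within 2-fold, 1.20-fold and 1.04-fold higher in Z(+). The part of these cell types in the lower values of Vpreb3, Igll1 and Vpreb1 was not tested.

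Of 8 measured plasma cell genes, which mark the end of B cell development, 8 were within 2-fold, against 91.3% of all genes, with a median log2 difference of -0.35. Mzb1, a chaperone of antibody secretion, had 190 in Z(+) and 289 in Z(-), and Prdm1, the factor that drives the plasma cell program, had 339 in Z(+) and 473 in Z(-). Sdc1, a surface marker of plasma cells, had 222 in Z(+) and 142 in Z(-), and Irf4, which plasma cells share with other leukocytes, had 251 in Z(+) and 302 in Z(-).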

How the data were processed

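Total RNA of Z(+) and Z(-) spleen cells (1 sample each, 2 technical arrays per sample) was amplified and labelled with Cy5. The table deposited by the authors lists 26423 probes with a linear intensity in each sample. For software, background correction and scaling, the sources used here give nothing. Of these probes, 21876 had 1 gene symbol in the platform annotation, 0 had several and 4547 had none.

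Intensities under 1 were set to 1 and log2 transformed, probes of a gene were averaged, and the difference was Z(+) minus Z(-). No scaling was added. Intensities of single arrays were recovered up to 1000, where a value equals the mean of 2 whole numbers, each times a factor of its array (0.968 and 1.03 in Z(+), 0.990 and 1.01 in Z(-)). Where more than 1 split fitted, only one with arrays within 1.5-fold of each other was kept. The array spreads and shares given over all probes may rest in part on this rule. Among probes with an intensity above 0 and at most 1000, a split was found for 99.9% in Z(+) and 100% in Z(-). Such probes made up 82.8% of all probes in Z(+) and 82.2% in Z(-). All 4 arrays were recovered for 17140 of the 21876 probes with a gene symbol. For each probe of the studied genes exactly 1 split existed. Which array is which is unknown. Recovery and differences were tested on simulated data. The number of arrays limits the precision.

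No p-value is given, as no replicates exist. The studied genes and the 11 other lists were chosen with earlier results of these data known. Besides the studied genes, the text names Ighm, Cd79a, Cd79b, Il7r and Prkdc, and per list up to 4 genes with the largest absolute difference at or above median brightness. Fcrla, Erg, Pacsin1, Cox6a2, Csf1r, Cd68, Crlf2, Il2ra, Spn, Cd93, Cxcr4, Ptcra, Gata3, Eomes, Ncr1 and Xrcc5 with Xrcc6 were chosen after their values were seen. Alternatives were 3 scalings, the brightest probe, pseudocounts of 16 and 50, filters on dim genes, other size thresholds, probes in place of genes, and the technical arrays. Promoter windows are from RefSeq, GRCm38.p6. Python 3.11.15, numpy 2.4.6, pandas 2.3.3, statsmodels 0.14.6 (loess, span 0.3) and matplotlib 3.10.9 were used.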

Additional observations from a re-analysis of the deposited data

How the results depend on the processing

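Direction was kept for Vpreb1, Vpreb3, Igll1, Rag1 and Dntt under every alternative run. The count of genes at least 2-fold lower in Z(+), 2 with the settings used, was also 2 under the 3 scalings, with the brightest probe, by probes, and with an intensity of at least 32 required. It was 1 with a pseudocount of 16, 1 where every technical array had to be past 2-fold, 0 with a pseudocount of 50, 0 at or above the median brightness (1 gene left), 4 at 1.5-fold and 1 at 4-fold. The 4 pairings of technical arrays were added after seeing the data. They gave between 1 and 3 lower genes (1 for array B of Z(+) against B of Z(-)), and 1 higher gene, Pax5, for A of Z(+) against B of Z(-). The median log2 difference, -0.26, was -0.88 over the single gene at or above the median brightness, -1.09 over the 3 genes with an intensity of at least 32, and -0.65 and -0.63 for array B of Z(+) against A and B of Z(-). It lay between -0.48 and -0.05 in all other alternatives run. Over all genes, 1197 were at least 2-fold lower and 466 higher, against 641 and 205 with a pseudocount of 50, 842 and 272 with 16, 586 and 202 at or above the median brightness, 2583 and 1506 at 1.5-fold, and 285 and 89 at 4-fold. No paired analysis was possible because each fraction has 1 sample and the labels' technical numbers do not tie arrays across fractions. Dim intensities limit what can be said of Dntt, Pax5, Ms4a1, Rag1, Rag2 and Ebf1.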

Other observations

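Xrcc5 and Xrcc6 encode Ku80 and Ku70, which form a single complex at DNA ends, yet their probes differed between the fractions by unequal amounts. Xrcc5 read 51.3 in Z(+) cells, against 273 in Z(-) cells, a log2 difference of -2.41, and its arrays read 44.5 and 58.1 in Z(+), against 269 and 278 in Z(-). Xrcc6 had 311 in Z(+) and 388 in Z(-), a log2 difference of -0.32. Each gene had 1 probe, so no second probe could be compared.

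Fcrla, a B cell protein of the Fc receptor family, had 12.5 in Z(+) and 49.0 in Z(-), a log2 difference of -1.97 close to that of Vpreb3. Its arrays read 12.4 and 12.6 in Z(+), against 44.6 and 53.5 in Z(-). It was chosen for that likeness after its value was seen.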
